A study of Mus musculus with 8 samples.

Results

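A set of 9 genes that mark basal forebrain cholinergic neurons (Chat, Slc5a7, Slc18a3, Lhx8, Gbx1, Isl1, Ngfr, Slc10a4 and Nkx2-1) was followed in mRNA-seq of the periventricular area of 8 mice. They are 9 of the 54307 genes in the deposited gene counts, and all 9 passed the filter on low counts that left 17669 genes. The list was chosen from known roles in these neurons and from earlier results of the same KO and WT mice, and some of its genes stand in the study's own list of differentially expressed genes. Their KO and WT values are therefore given as a description, with no test. The study asked which pathways change in the adult ventricular-subventricular zone (V-SVZ), a stem cell niche beside the lateral ventricle, when LRIG1 is lost. The mice were 8 weeks old, on a 129 background per the labels, and 4 were wild type (WT; 3 females, 1 male) while 4 were Lrig1 knockout (KO; 2 females, 2 males). The KO mice carried CreERT2 in exon 1 on both copies of Lrig1 as a constitutive knockout that also covers development, and the WT mice were littermates with wild-type alleles. The area was taken from 1 hemisphere of each mouse, so that a library holds the niche together with whatever neighbouring striatum, septum, cortex or diencephalon came with it.

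Acetylcholine neurons of the basal forebrain lie in the medial septum, the diagonal band and the nucleus basalis and project to hippocampus and cortex, while those of the striatum are local interneurons. A cholinergic neuron makes acetylcholine with choline acetyltransferase (Chat) from choline that the high-affinity transporter Slc5a7 brings in, and the vesicular transporter Slc18a3 loads it into synaptic vesicles. Many of these neurons arise from the ventral forebrain under the transcription factors Nkx2-1, Lhx8, Gbx1 and Isl1, and the projection neurons carry the low-affinity neurotrophin receptor p75 (Ngfr). Slc10a4 is a vesicular protein of cholinergic and monoamine neurons.

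Chat and Slc18a3 form 1 locus, in which Slc18a3 lies on the same strand inside the first intron of Chat-201, the main Chat transcript, and shares no exon bases with it. In RefSeq, build GRCm38.p6, the starts of the pair were 1059 bases apart. The windows from 250 bases before to 50 bases after the start are shown for these neighbours and for Slc5a7, as the 3 members that make up the acetylcholine cycle. Chat lies at chr14:32465860-32466159, Slc18a3 at chr14:32464801-32465100 and Slc5a7 at chr17:54298985-54299284, all on the minus strand. Capitals mark any match, on either strand, to the TATA box TATAAA or to the core bound by NKX2 factors. That core is CAAGTG on the plus strand of the window and reads CACTTG when it lies on the opposite one.
Chat: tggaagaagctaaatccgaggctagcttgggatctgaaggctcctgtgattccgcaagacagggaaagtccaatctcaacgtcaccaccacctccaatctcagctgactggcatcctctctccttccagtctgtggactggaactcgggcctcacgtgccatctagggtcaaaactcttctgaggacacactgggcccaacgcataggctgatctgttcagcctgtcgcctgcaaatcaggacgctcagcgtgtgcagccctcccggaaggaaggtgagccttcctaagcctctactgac
Slc18a3: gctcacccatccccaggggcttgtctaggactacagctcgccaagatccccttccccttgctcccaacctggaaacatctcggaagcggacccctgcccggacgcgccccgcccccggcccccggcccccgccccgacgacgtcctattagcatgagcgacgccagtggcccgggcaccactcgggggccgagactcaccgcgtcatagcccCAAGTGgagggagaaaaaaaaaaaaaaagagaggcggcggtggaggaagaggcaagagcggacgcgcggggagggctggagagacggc
Slc5a7: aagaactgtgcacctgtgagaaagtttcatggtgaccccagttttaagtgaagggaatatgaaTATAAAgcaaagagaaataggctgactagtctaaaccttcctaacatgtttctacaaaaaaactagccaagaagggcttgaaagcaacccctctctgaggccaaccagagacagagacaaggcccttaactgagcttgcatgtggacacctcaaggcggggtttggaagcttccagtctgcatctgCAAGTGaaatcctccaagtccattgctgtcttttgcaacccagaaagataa
Of the 8 members with a window in the table, 3 held the NKX2 core, namely Slc5a7, Slc18a3 and Ngfr, against 13.6% of 32851 promoters of the same length. TATAAA was found in 1 of the 8, Slc5a7, against 13.6% of all promoters. The homeodomain core TAATTA was in 0 of the 8, against 5.29% of all promoters. The median GC content of the 8 windows was 56.5%, beside 52.7% over all promoters. A match is a description of letters, not a site shown to be bound.

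Depth was 47887437 to 61826150 counts in WT and 52664769 to 74482334 in KO mice, and the 9 genes together took 2238 (WT replicate 2) to 15921 (KO replicate 4) of them. Levels are CPM, counts scaled to library size by the trimmed mean of M values (TMM). Lrig1 was at 33.7 ± 14.2 CPM in WT and 2.42 ± 1.40 in KO mice (SD, n = 4 each), and its 13.5 CPM in WT replicate 2 was the lowest WT value. The KO minus WT log2 difference of Lrig1 was -3.80 (SE 0.52), and -3.47 (SE 0.15) with sex in the model. The paper reports Lrig1 as the most significantly lowered gene in its own DESeq2 comparison. Although its KO and WT values did not overlap, Lrig1 itself missed the threshold in the edgeR comparison here (adjusted p = 0.286). A gene that is not called here may therefore still differ. Xist and Ddx3y counts matched the labelled sex in 8 of 8 mice. WT replicate 2, the single WT male, stood apart: the summed level of 11 cortical excitatory neuron markers was 6942 CPM there and 2200 to 3911 CPM in the other mice. Most of each sum was Camk2a, at 4694 CPM in WT replicate 2 and 2035 to 2913 CPM in the others. Slc17a7, of the same list, was at 1356 CPM in WT replicate 2 and from 5.45 (KO replicate 4) to 648 CPM (KO replicate 3) in the others. Similar sums can thus hold very different levels of the other cortical markers. For many of the calls, directions, folds, medians and ranks that leaving out WT replicate 2 moves most, the value without it is given too. Each library came from 1 mouse.

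Chat stood at 20.9, 5.88, 20.0 and 26.5 CPM in WT replicates 1 to 4, and at 18.2, 26.0, 20.4 and 34.4 CPM in KO replicates 1 to 4. Slc5a7, the most abundant member by read count, stood at 51.3, 13.1, 41.9 and 61.3 CPM in the WT mice and at 35.9, 61.8, 43.0 and 74.4 CPM in the KO mice. Both genes were lowest in WT replicate 2 and highest in KO replicate 4, and KO and WT values overlapped. Slc18a3 stood at 13.5, 2.93, 13.2 and 19.3 CPM in WT and at 10.9, 17.3, 11.4 and 23.8 CPM in KO mice, with the same lowest and highest mouse. Slc10a4 stood at 21.8, 4.88, 18.8 and 26.4 CPM in WT and at 16.7, 30.4, 16.5 and 29.2 CPM in KO mice. Here the highest mouse was KO replicate 2, and the other 3 WT mice lay between KO males and KO females. Over the 8 mice the highest value was 5.69 times the lowest for Slc5a7, 5.85 times for Chat, 6.24 times for Slc10a4 and 8.14 times for Slc18a3. WT replicate 2 alone set these folds, which were 2.07, 1.89, 1.84 and 2.18 among the other 7 mice.

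The transcription factors spread further. Lhx8, a LIM homeodomain factor needed for cholinergic identity, stood at 13.5, 2.21, 7.03 and 17.0 CPM in WT and at 8.57, 20.5, 10.4 and 19.2 CPM in KO mice. Gbx1, a homeodomain factor of the same lineage, stood at 4.37, 0.573, 2.39 and 6.73 CPM in WT and at 2.46, 9.73, 3.69 and 7.58 CPM in KO mice. For both, WT replicates 2 and 3 and KO replicate 1 were low and KO replicate 2 was highest, so that the low mice came from both genotypes. Nkx2-1, which specifies the medial ganglionic eminence and preoptic area, stood at 5.63, 1.54, 4.01 and 9.26 CPM in WT and at 4.37, 13.4, 4.26 and 7.02 CPM in KO mice. Isl1, which is also made in striatal medium spiny neurons, stood at 19.6, 4.48, 20.8 and 18.0 CPM in WT and at 18.3, 22.1, 15.5 and 22.3 CPM in KO mice. Isl1 was the flattest member, since apart from WT replicate 2 its values ran only from 15.5 to 22.3 CPM. Highest over lowest was 4.97 for Isl1, 8.69 for Nkx2-1, 9.29 for Lhx8 and 17.0 for Gbx1. Among the 7 mice other than WT replicate 2 these folds were 1.43, 3.34, 2.92 and 4.08, so the factors other than Isl1 still spread further than the transmitter genes.

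Ngfr varied most. It stood at 11.3, 1.06, 2.60 and 33.8 CPM in WT and at 3.32, 30.3, 11.6 and 33.0 CPM in KO mice, a range of 31.8-fold, or 12.99-fold without WT replicate 2. The mice fell into a high trio of WT replicate 4 and KO replicates 2 and 4, a middle pair of WT replicate 1 and KO replicate 3, and a low trio of WT replicates 2 and 3 and KO replicate 1. Each of the 3 sets held both genotypes.

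**Figure D1:**
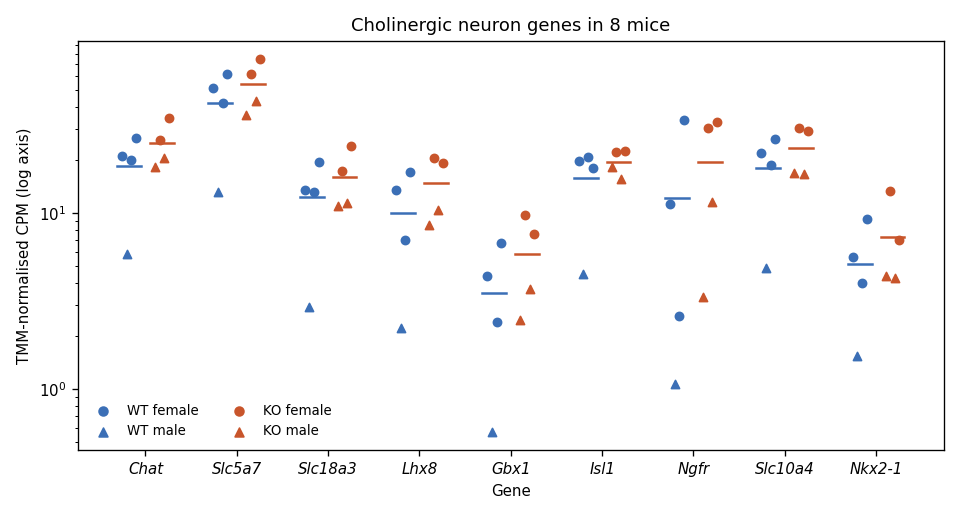
Level of each of the 9 genes in every mouse, as TMM-normalised CPM on a log axis, with WT in blue and KO in orange, circles for females, triangles for males and a bar at each group's mean. WT replicate 2 is the lowest point of all 9 genes, and the KO and WT points of every gene overlap.

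The means of all 9 genes were higher in KO than in WT mice, and for none did the groups separate. Chat was 18.3 ± 8.79 CPM in WT and 24.7 ± 7.22 CPM in KO (SD, n = 4 each), a log2 difference of 0.43 with a standard error (SE) of 0.40. Slc5a7 (41.9 ± 20.8 and 53.8 ± 17.6 CPM), Slc18a3 (12.2 ± 6.82 and 15.9 ± 6.05) and Slc10a4 (18.0 ± 9.27 and 23.2 ± 7.65) differed by log2 0.36 (SE 0.42), 0.38 (SE 0.49) and 0.37 (SE 0.45). For these 4 genes of transmitter handling the difference was about the size of its SE or smaller. Among the factors, Gbx1 differed by log2 0.74 (SE 0.67; 3.51 ± 2.64 and 5.87 ± 3.38 CPM), Lhx8 by 0.56 (SE 0.55; 9.94 ± 6.60 and 14.7 ± 6.06), Nkx2-1 by 0.51 (SE 0.54; 5.11 ± 3.24 and 7.25 ± 4.27) and Isl1 by 0.31 (SE 0.40; 15.7 ± 7.60 and 19.6 ± 3.25). Ngfr differed by log2 0.68 with the widest SE, 1.01 (12.2 ± 15.1 and 19.5 ± 14.4 CPM). In bulk tissue, a different number of cholinergic cells and a different amount of RNA per cell cannot be told apart.

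The median of the 9 log2 differences was 0.43, beside a median of -0.00094 over the 17669 genes. Among the members 0 of 9 passed the adjusted p of 0.1 and 0 of 9 had separate groups, where 0.00566% and 1.53% of all genes did, and since the list came from this contrast nothing is read from these counts. A single library set much of the size. Without WT replicate 2 the median fell to 0.14, with Isl1 at 0.0029 and Gbx1 at 0.39. Leaving out WT replicate 4 instead raised it to 0.69, and leaving out KO replicate 4 gave 0.24. With sex in the model the median was 0.91, from 0.74 for Isl1 to 1.52 for Ngfr. Among the 5 females alone the median was 0.43. Both KO females lay above all 3 WT females for Slc5a7, Lhx8, Gbx1, Isl1 and Slc10a4, 5 of 9 members, as did 10.4% of all genes. The list came from this contrast, so nothing is read from this count either.

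**Figure D2:**
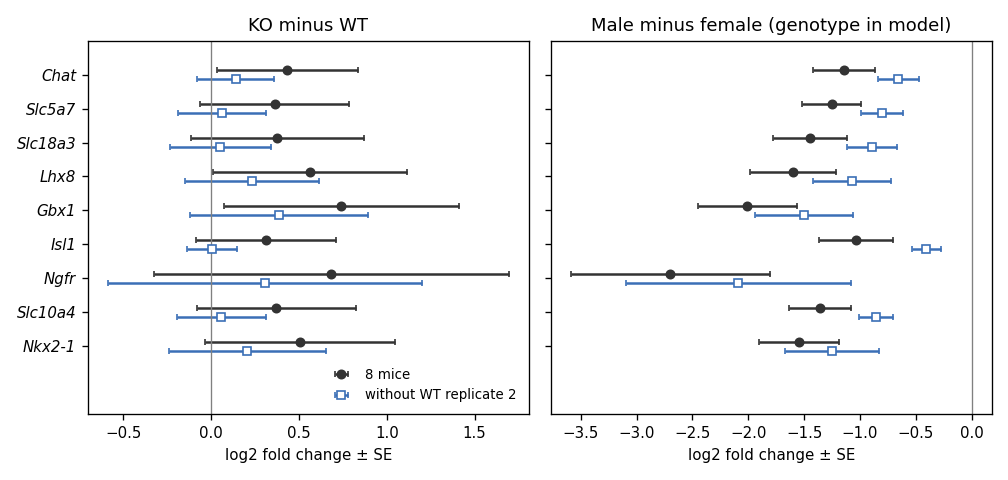
Log2 fold change with its SE for each gene, KO minus WT on the left and male minus female with genotype in the model on the right, in all 8 mice (filled circles) and without WT replicate 2 (open squares). Leaving out that mouse moves the median from 0.43 to 0.14 on the left and from -1.45 to -0.89 on the right.

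Sex, which the labels give, was compared with genotype in the model. WT replicate 2 is the only WT male and was low for every member, so a list drawn from KO and WT results of these mice is not independent of sex, and the members' values by sex are given as a description. All 9 genes were lower in males, by a median log2 of -1.45 against -0.0028 over all genes. Among the transmitter genes, the male minus female log2 difference was -1.14 (SE 0.28) for Chat, -1.25 (SE 0.26) for Slc5a7, -1.36 (SE 0.28) for Slc10a4 and -1.45 (SE 0.33) for Slc18a3. Among the factors it was -1.04 (SE 0.33) for Isl1, -1.55 (SE 0.36) for Nkx2-1, -1.60 (SE 0.39) for Lhx8 and -2.01 (SE 0.44) for Gbx1. Ngfr had the widest difference and SE, at -2.70 (SE 0.89). By the edgeR quasi-likelihood test (Benjamini-Hochberg adjusted p under 0.1) 7 of 9 members, all but Isl1 and Ngfr, were called lower in males, where 0.849% of all genes were called lower and 2.87% higher, and nothing is read from this count. Every male lay below every female for Slc18a3 and Slc10a4, 2 of 9 members, as for 2.80% of all genes.

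Most single mice changed the number of these calls. Without WT replicate 2, 0 members passed by edgeR and the median was -0.89. That mouse was the lowest of the 8 mice for 9 of 9 members and for 20.3% of all genes. In the fit without it, 8 of 9 members had an unadjusted edgeR p under 0.05, as did 1287 of 17872 genes. The list is not independent of sex, so nothing is read from this count. Leaving out WT replicate 1 or KO replicate 3 also left 0 calls, KO replicate 4 left 3, and WT replicate 4 or KO replicate 2 left 4. Leaving out WT replicate 3 left 5 and KO replicate 1 left all 7. The calls over all genes moved too, from 657 in all 8 mice to 264 without WT replicate 1 and 59 without KO replicate 3. They were 586 without KO replicate 4, 316 without WT replicate 4 and 387 without KO replicate 2. They were 495 without WT replicate 3, 1462 without KO replicate 1 and 10 without WT replicate 2. Nothing is read from the members' counts. Within the KO mice, both males lay below both females for 9 of 9 members and for 16.9% of all genes. No test was made of 2 against 2 mice. Only 1 of 4 WT mice was male against 2 of 4 KO mice, so the sex and genotype values share their mice and are not independent of each other. Markers of other tissue moved with sex too. The summed cortical excitatory level was 3554 to 6942 CPM in males and 2200 to 3199 CPM in females, and 9 of its 11 genes were called higher in males, with Slc17a7 at log2 4.33 (SE 0.76). Neurod6, Neurod2, Tbr1, Fezf2, Lamp5, Nrn1 and Camk2a were also among them and rose by log2 0.59 to 4.01. Without WT replicate 2, 0 of 11 passed and the list's median went from 2.87 to 2.34. How far tissue makeup and sex each bear on the members cannot be told apart in these mice.

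**Figure D3:**
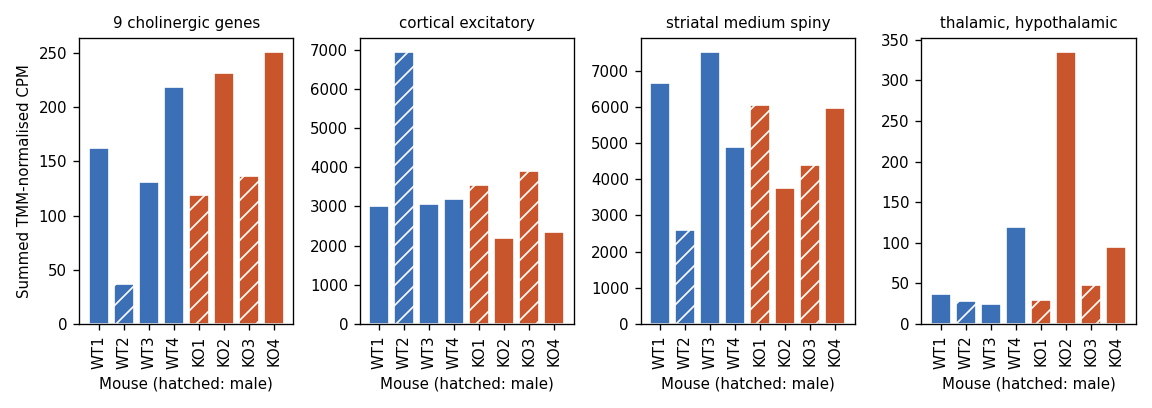
Summed TMM-normalised CPM in each mouse for the 9 cholinergic genes, 11 cortical excitatory markers, 11 striatal medium spiny markers and 10 thalamic and hypothalamic markers, with WT in blue, KO in orange and males hatched. WT replicate 2 has the lowest cholinergic sum (36.6) and the highest cortical sum (6942), and KO replicate 2 has the highest thalamic and hypothalamic sum (335). The cortical sum is mostly Camk2a.

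From mouse to mouse the members moved together. After each genotype's mean was subtracted, Pearson's r of log2 CPM over 8 mice had a median of 0.935 over the 36 pairs, from 0.616 (Isl1 with Ngfr) to 0.998 (Chat with Slc18a3). The median was 0.837 without WT replicate 2, where the lowest pair fell to r = 0.197, and 0.928 to 0.959 without any one of the other mice. Among 14452 genes with a mean of at least 1 CPM, ranked for likeness to Chat, Slc18a3 came second to Chat itself, Slc5a7 was at rank 5 and Slc10a4 at rank 9. Lhx8 (57), Isl1 (75) and Gbx1 (86) also stood in the first 100, while Nkx2-1 (453) and Ngfr (611) did not. Without WT replicate 2 only Slc18a3 (rank 3) and Slc5a7 (rank 11) stayed in the first 100, Slc10a4 came at 107, Gbx1, Ngfr and Lhx8 at 210, 222 and 235, Nkx2-1 at 1007 and Isl1 at 1855. These r values are a description over mice that share depth, dissection and library preparation.

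**Figure D4:**
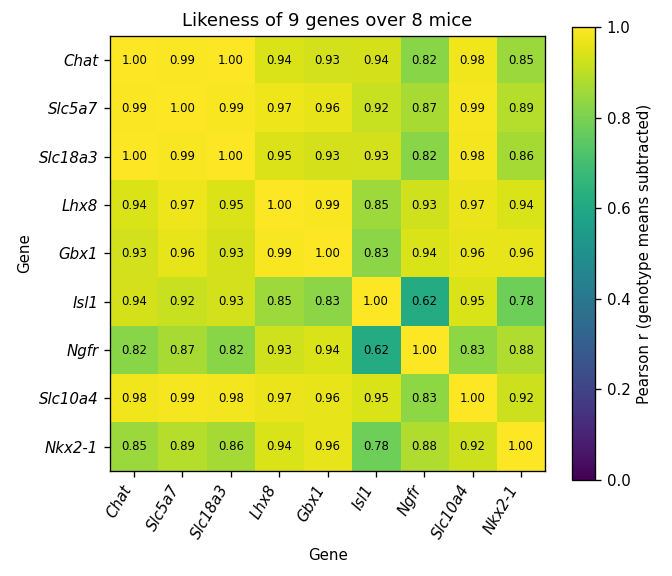
Pearson's r between each pair of the 9 genes over 8 mice, from log2 CPM with the mean of each genotype subtracted, on a colour scale from 0 to 1. Chat, Slc5a7, Slc18a3 and Slc10a4 form a block at 0.979 or above, and the lowest cell is Isl1 with Ngfr at 0.62.

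Without that subtraction, the 8 relations of Chat with the other members gave Pearson's r of 0.846 (Ngfr) to 0.995 (Slc18a3), with Spearman's rho of 0.595 (Isl1) to 0.976 (Slc5a7 and Slc18a3). For Slc18a3 the two-sided exact permutation p was 0.000124 for r (0.000496 adjusted over the 8 relations) and 0.000397 for rho (adjusted 0.00159), n = 8. The other r had exact permutation p between 4.96e-05 and 0.0124, the adjusted ones between 0.000397 and 0.0124. For rho they ran from 0.000397 to 0.0154 except in Isl1, where rho = 0.595 had an exact permutation p of 0.132 and an adjusted p of 0.132. Without WT replicate 2 and KO replicate 4, the mice farthest from the median of Chat, r was 0.877 to 0.962 for 7 of the 8 but 0.283 for Isl1, whose relation to Chat rests on those mice. The genes were listed together as markers of 1 cell type and with KO and WT results known, and these r include the KO minus WT shift. The permutation also shuffled the mice freely across genotype and sex, with WT replicate 2 lowest for every member. These relations are therefore not independent evidence about the cell type, and nothing is read from their p-values.

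Relative to Chat, Slc5a7 kept the steadiest proportion, at a log2 ratio of CPM of 1.14 ± 0.10 (SD, n = 8 mice). Slc18a3 stood at -0.67 ± 0.18, Slc10a4 at -0.09 ± 0.18 and Isl1 at -0.28 ± 0.26. The ratio spread more for Lhx8 (-0.92 ± 0.40), Nkx2-1 (-1.90 ± 0.46) and Gbx1 (-2.43 ± 0.61), and most for Ngfr (-1.12 ± 1.31). The log2 ratio of Ngfr to Chat was 0.35 in WT replicate 4, 0.22 in KO replicate 2 and -0.06 in KO replicate 4. It was -0.82 in KO replicate 3 and -0.89 in WT replicate 1, and -2.43, -2.44 and -2.93 in WT replicate 2, KO replicate 1 and WT replicate 3. The 3 mice with the highest ratio also had the highest summed level of 10 thalamic and hypothalamic genes, at 119.6, 335 and 94.7 CPM, against 24.6 to 47.8 CPM in the other 5. Avp, the vasopressin gene of hypothalamic neurons and 1 gene of that list, was at 12.9, 110 and 14.4 CPM in those 3 mice and at 0.0164 to 1.02 CPM in the rest. Slc17a6, Gbx2, Oxt, Pmch and Trh were also highest in those 3 mice, but Tcf7l2, Prkcd, Lef1 and Pomc overlapped with the rest. All 3 mice were female, as were WT replicates 1 and 3. Striatal medium spiny markers were lowest in WT replicate 2 (2588 CPM) and highest in WT replicate 3 (7517 CPM), both of which had low Ngfr. The part of the dissection in these ratios was not tested.

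**Figure D5:**
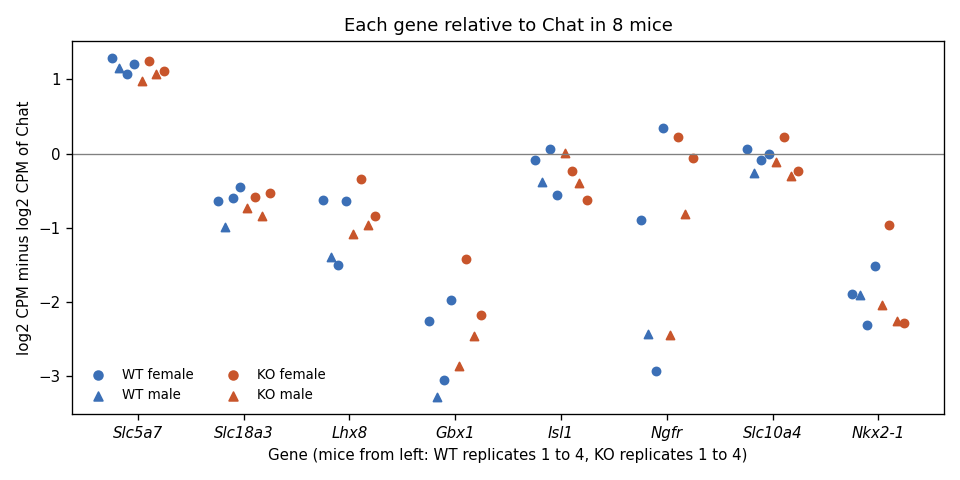
Log2 CPM of each gene minus that of Chat in every mouse, with WT in blue, KO in orange, circles for females and triangles for males. Slc5a7 stays within 0.98 to 1.29 in all 8 mice, while Ngfr runs from -2.93 to 0.35.

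Levels of different genes were compared per length, as TPM, a measure scaled by transcript length. The order of the means over 8 mice was Slc5a7 (15.1 ± 6.32 TPM, SD), Slc10a4 (14.9 ± 6.52), Chat (11.9 ± 4.67), Isl1 (11.8 ± 3.26), Lhx8 (10.3 ± 5.88), Slc18a3 (8.55 ± 4.12), Ngfr (6.70 ± 6.20), Nkx2-1 (3.79 ± 2.42) and Gbx1 (1.92 ± 1.30). Among neighbours in this order, only Slc10a4 over Chat and Nkx2-1 over Gbx1 held in 8 of 8 mice. The other neighbours held in 2 to 6 of 8 mice and did not differ beyond their spread. Gbx1 was last in every mouse, and Isl1 ranged from rank 1 to rank 7.

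Most members came from 1 annotated transcript. Chat-201 held 97.3% ± 1.07 of the estimated reads of Chat (SD, n = 8), Slc10a4-201 97.8% ± 4.07, Isl1-201 94.2% ± 3.17 and Slc5a7-201 91.0% ± 6.82. The rest of Slc5a7 was nearly all Slc5a7-202, a transcript with a retained intron, at 8.55% ± 6.80. Lhx8 was split into 84.9% ± 4.41 Lhx8-201 and 11.4% ± 5.13 Lhx8-205. Nkx2-1 used both of its transcripts, with Nkx2-1-202 at 64.8% ± 7.68 in WT and 56.9% ± 14.7 in KO mice (SD, n = 4 each), and KO replicate 3 was the only mouse where Nkx2-1-201 led, at 64.1%. Gbx1, Ngfr and Slc18a3 have 1 transcript each. Chat overlaps the antisense gene Gm2990 and Nkx2-1 overlaps Gm26973, and whether counting used strand is not given in the sources used here, so reads of each pair cannot be told apart.

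Genes around the acetylcholine cycle followed the members only in part. In the KO and WT comparison 0 genes of the 12 lists beside the members passed by edgeR or by DESeq2, and 1, Pdgfrb of the mural list, had an unadjusted p under 0.05. Of 13 genes of acetylcholine synthesis and breakdown, the esterases Ache and Bche differed between KO and WT by log2 0.28 and 0.10. The list's median was 0.03 and turned to -0.05 without WT replicate 2. Ache, which breaks down acetylcholine at the synapse, fell by 0.75 (adjusted p = 0.0940, edgeR) in males on the log2 scale. Acly, which makes acetyl-CoA, fell by 0.47 (adjusted p = 0.0892, edgeR), and these were the 2 of 13 that passed. Among genes of neurotrophin and GDNF signals, the ligand Bdnf differed between KO and WT by log2 -0.30 (SE 0.88). The sorting receptor Sort1 rose by log2 0.34 in males (adjusted p = 0.0981, edgeR). The median of this list by sex was -0.07. All of these sex calls were lost without WT replicate 2, as were those of every other list.

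Among genes outside the list, Slc4a4, a bicarbonate transporter of astrocytes and other cells, had the highest likeness to the members' mean, at r = 0.995 after centring within genotype. Rprd2 (0.982), Slc7a14 (0.979), Sox1ot (0.978), Pbrm1 (0.974), AI606473 (0.973), Cdh4 (0.973), Sntb1 (0.973) and Smyd1 (0.971) were also among the 10 highest. When WT replicate 2 was left out, Slc4a4 kept r = 0.992 and the other 8 had r of 0.888 (AI606473) to 0.942 (Smyd1). For Chat alone the first 4 were 1110015O18Rik (0.993), Cdh4 (0.993), Calcrl (0.980) and Nek4 (0.980), and without that mouse they had r of 0.958, 0.957, 0.896 and 0.919.

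Other genes of ventral forebrain origin, mostly transcription factors with the ligands Shh, Fgf8 and Fgf17 beside them, had a median r of 0.68 to the members over 14 genes tested. Over all genes of at least 1 CPM the median r was 0.014. Among the other lists it ran from -0.77 (cortical excitatory) to 0.90 (3 monoamine genes), with 0.72 for thalamic and hypothalamic genes. A median of 0.68 is therefore not particular to ventral forebrain genes. Lhx6 and Lhx5 differed between KO and WT by log2 0.30 (SE 0.20) and 1.28 (SE 1.30). Lhx5 was at 0 CPM in WT replicate 2 and highest in KO replicate 2, at 4.28 CPM. By sex 0 of the 14 passed, 13 of 14 were lower in males, and Fgf8 had 0 counts in every mouse. Receptors for acetylcholine were measured beside them. Of 5 muscarinic genes (Chrm1 log2 -0.18 and Chrm2 0.34, KO minus WT) only Chrm3 passed by sex, at log2 1.54 higher in males (adjusted p = 0.0703, edgeR). Of 12 nicotinic genes (Chrna2 log2 1.13, SE 0.78, and Chrna3 0.85, SE 0.56) only Chrna5 did, at log2 1.89 higher in males (adjusted p = 0.0910, edgeR). Chrna2 fell to 0.0213 CPM in WT replicate 3, and Chrna3 was highest in KO replicate 2, at 2.22 CPM.

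Most markers of other cholinergic neurons were at or near 0. Of 10 genes of motor and habenular neurons, Mnx1 had 0 counts in all mice, Isl2, Lhx3, Lhx4, Phox2a and Pou4f1 reached at most 9 counts in any mouse, and only Tac2 (KO minus WT log2 0.80), Prph (-0.25) and Calca (-0.29) were tested, with 0 calls. Tac2, which is also made by other neurons, was the exception to the low levels, at 2.52 to 11.5 CPM. Pallidal and septal GABA markers summed to 1763 CPM in WT replicate 2 and 2613 to 3840 CPM in the other mice, mostly from Penk, Gad1, Gad2 and Slc32a1. Those genes, Foxp2 and Sox6 were lowest in WT replicate 2. Pvalb (41.2 CPM), Kcnc2 (76.1), Npas1 (9.05), Kcng4 (9.08) and Etv1 (81.6) were instead highest in that mouse, and Kcna1 was neither. The sum therefore does not speak for the list as a whole. Of the 12 pallidal and septal genes (Pvalb log2 -0.18 and Kcnc2 0.08, KO minus WT) Gad2 passed by sex, falling by 0.72 in males (adjusted p = 0.0932, edgeR). The 11 striatal genes (Drd1 log2 -0.08 and Drd2 -0.10, KO minus WT) had 0 calls by sex, 11 of 11 lying lower in males with a median of -0.45 that turned to 0.14 without WT replicate 2. The cortical list had a KO minus WT median of -0.80 that turned to 0.57 without that mouse, so the direction of the cortical list turned with 1 library. Thalamic and hypothalamic genes (Tcf7l2 log2 0.45, SE 0.35, and Slc17a6 0.75, SE 0.91, KO minus WT) had 1 of 10 called by sex. This was Avp, which fell by 6.86 in males (adjusted p = 0.0846, edgeR). Monoamine neuron genes summed to only 9.93 to 38.0 CPM. Of 6 tested (Th log2 0.57, SE 0.33, and Slc6a3 0.61, SE 0.39, KO minus WT), Th, Slc18a2 and Ddc were called lower in males. Slc6a3 had only 7 to 30 counts per mouse. Mural and meningeal genes (Pdgfrb log2 -0.33 and Rgs5 -0.09, KO minus WT) had 0 of 8 called by sex and ranged from 126 to 184 CPM in sum. What part these other cells have in the members' levels was not tested.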

How the data were processed

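PolyA mRNA-seq libraries of V-SVZ tissue from 4 WT and 4 Lrig1 KO mice were analysed. The authors made reads with bcl2fastq 2.20 and quantified them with Salmon on Gencode M29, and the version of Salmon is not given in the sources used here. They deposited a gene table of estimated counts (expected counts, rounded here to whole numbers) and, per mouse, transcript files with estimated counts, effective lengths and TPM values, which Salmon scales by length and library total.

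Genes were filtered with filterByExpr, scaled by TMM and tested with the quasi-likelihood test of edgeR 4.0.16 in R 4.3.3, with limma 3.58.1, at a Benjamini-Hochberg adjusted p under 0.1 over 17669 genes. Log2 CPM used a prior count of 2. DESeq2 1.42.0, other filters and scalings, sex, replicate blocks and leaving out each mouse were alternatives. The fits were tested on simulated data with 200 changed genes. Symbols were found for 94.8% of identifiers. Transcripts were named through Gencode M21. Promoters came from RefSeq, matching 8 of 9 members, and Gbx1 is named only.

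The members and lists were chosen with earlier results of these data known. All members were named, with the first 2 tested genes of each list, every list gene past the threshold, Lrig1, and the 10 genes most like the members and 5 most like Chat. Some genes that this rule names are not reported here. The single-mouse values of Avp beside Ngfr, and the orders within one sex or genotype, and the folds, ranks and r without WT replicate 2, were chosen after seeing the data. Replicate numbers were not treated as pairs in the main fits.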

Additional observations from a re-analysis of the deposited data

Results flagged for a closer look

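Dixon's test at 95% was run on 44 groups of 4 mice, for the 9 members and the summed lists, and 2 of them (4.55%) had a mouse that lay far from the others, where chance gives about 1 in 20. The summed cortical excitatory markers stood at 6942 CPM in WT replicate 2, far above the 3009 to 3199 CPM of the other WT mice. The summed thalamic and hypothalamic markers stood at 119.6 CPM in WT replicate 4, far above the 24.6 to 37.5 CPM of the other WT mice.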

How the results depend on the processing

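The count of genes called between KO and WT, 1 at first, was 13 with DESeq2, 2 with no filter on low counts, 0 with at least 10 counts in every mouse, 2 with sex as a covariate, 3 in females alone and 0 to 3 without each mouse in turn. The count by sex, 657 at first, was 1528 with DESeq2, 1360 with no filter, 7 with no genotype term and 10 to 1462 without each mouse in turn. Members called by sex, 7 at first, were 9 with DESeq2 and with no filter, 0 with no genotype term and 0 to 7 without each mouse. The cause of these moves was not tested. A block on the replicate number gave 0 genes between KO and WT, 10 by sex and 0 members by sex. Same-numbered mice deviated together with r of 0.10, -0.28, -0.28 and 0.33, but replicates 1, 2 and 3 each set a female beside a male. These r therefore cannot show whether the numbers pair the mice. A lost call under the block does not mean a smaller difference. The members' median KO minus WT log2 difference stayed above 0 in every alternative, from 0.14 without WT replicate 2 to 0.91 with sex in the model. For single members by sex, 48 alternative values missed the threshold, 5 newly passed it, 73 kept their side and 0 changed direction. The median r between members was 0.934 on TPM and 0.837 to 0.959 without each mouse, the latter chosen after seeing the data. Depth gave every member at least 35 counts in every mouse.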
